A study of Homo sapiens with 6 samples.

Results

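Vimentin, a pair of mesenchymal cadherins and the 6 transcription factors of the ZEB, SNAI and TWIST families were followed in MDA-MB-231 cells, an established human breast cancer line of triple-negative type, after irradiation. The 9 genes (VIM, CDH2, CDH11, ZEB1, ZEB2, SNAI1, SNAI2, TWIST1 and TWIST2) were picked by symbol, and each matched 1 row among the 61280 gene rows of the table. Irradiated cells had received 20 Gy of X-rays and were harvested after 24 h of further culture, and control cells of the same line were left untreated, with 3 libraries in each group. No culture time is given for the controls. The labels number the replicates without saying whether they were separate cultures, so the spread behind the p-values is that between these libraries and may be technical. Levels are in TPM, a unit in which the values of a library sum to a fixed total, and which corrects for transcript length and expresses a gene as its share of all transcripts in the library, and the number of reads behind a value is unknown. In a bulk library of this kind, fewer cells with a transcript and less of it per cell cannot be told apart.

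Epithelial cells that take on a mesenchymal state lose E-cadherin junctions and keratin-dominated filaments and gain vimentin, N-cadherin and motility, a shift called the epithelial to mesenchymal transition (EMT). The zinc finger proteins of the SNAI and ZEB families and the basic helix-loop-helix proteins of the TWIST family drive it by binding E-box sequences, chiefly in promoters of epithelial genes such as CDH1, where they recruit co-repressors. ZEB1 and ZEB2 and the microRNAs of the miR-200 family repress each other, so that epithelial cells hold the microRNAs and mesenchymal cells hold the ZEB proteins. MDA-MB-231 is widely used as a mesenchymal-like breast cancer line.

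The microRNA family that targets ZEB1 and ZEB2 is shown because sequence sets these 2 genes apart from the other 7. The mature RNAs are from RefSeq (GRCh38.p14), 5′ to 3′, with the seed (bases 2 to 8) in capitals, and they form a group with the seed AAUACUG and a group with the seed AACACUG.
hsa-miR-200b-3p: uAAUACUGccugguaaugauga
hsa-miR-200c-3p: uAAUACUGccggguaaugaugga
hsa-miR-429: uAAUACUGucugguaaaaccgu
hsa-miR-200a-3p: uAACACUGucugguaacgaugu
hsa-miR-141-3p: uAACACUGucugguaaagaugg

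Matches of 7 bases to these seeds were counted in the longest annotated 3′ UTR of each gene (GENCODE 29). ZEB1 held 9 of them in 2549 bases, 6 for the AAUACUG seed and 3 for AACACUG. ZEB2 held 9 in 5370 bases, 5 and 4 by seed. Only 6 of 18794 coding genes with a 3′ UTR of at least 50 bases, these 2 included, held 9 or more, and 28.8% held any. SNAI2 and CDH11 had 1 match each, and VIM, CDH2, SNAI1, TWIST1 and TWIST2 had none. The first match to the AAUACUG seed after the stop codon is printed for both ZEB genes as a 30-base window of the transcript strand, with the match in capitals.
ZEB1, chr10:31527611-31527640, plus strand: atctggcattgttttatcttatCAGTATTa
ZEB2, chr2:144389052-144389081, minus strand: aggtgcccgcactaccatacatCAGTATTt
A match is a description of the letters only. MicroRNAs themselves were not measured here. MIR200CHG, the host transcript of miR-200c and miR-141, was listed at 0 TPM in all 6 libraries, as was MIR205HG, the host of miR-205, another microRNA known to target ZEB1 and ZEB2.

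Promoters of 300 bases, 250 before and 50 after an annotated start, were searched for the E-box CACCTG on both strands. CAGGTG on the printed strand is its reverse complement. RefSeq entries were matched for VIM, CDH2, ZEB1, ZEB2 and TWIST2, 12 promoters in all, and CDH11, SNAI1, SNAI2 and TWIST1 had none in the table used. The motif stood in 2 of these 12, both of ZEB1, which has 7 annotated promoters, against 20.6% of all 35116 promoters. The ZEB1 promoter with 3 copies is printed because 0.635% of all promoters had 3 or more, and that of VIM, the member whose transcript was called, because it held none.
ZEB1, chr10:31318966-31319265, plus strand, CACCTG or CAGGTG in capitals: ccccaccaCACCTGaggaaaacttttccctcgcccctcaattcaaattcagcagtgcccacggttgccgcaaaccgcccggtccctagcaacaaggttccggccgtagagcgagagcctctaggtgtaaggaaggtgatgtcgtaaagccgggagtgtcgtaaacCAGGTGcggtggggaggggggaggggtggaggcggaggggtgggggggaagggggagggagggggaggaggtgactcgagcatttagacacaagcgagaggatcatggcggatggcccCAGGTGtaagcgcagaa
VIM, chr10:17227991-17228290, plus strand, no match: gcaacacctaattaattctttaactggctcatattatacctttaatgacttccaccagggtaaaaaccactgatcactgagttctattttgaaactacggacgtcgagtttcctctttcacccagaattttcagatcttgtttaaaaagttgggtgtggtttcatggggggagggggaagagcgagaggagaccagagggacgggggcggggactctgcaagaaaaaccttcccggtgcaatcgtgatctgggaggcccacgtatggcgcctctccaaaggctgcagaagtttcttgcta
The copies in the printed ZEB1 promoter began 242 and 85 bases before the annotated start of that promoter and 33 bases after it. That start is 1 of the 7 for ZEB1 and not the gene start given below. No binding was measured, so the matches bear on no value below.

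The libraries held 14248 to 14417 genes at 1 TPM or more in the controls and 14592 to 14889 in the irradiated cells. Libraries of a group correlated at 0.980 to 0.988 on the log2(TPM + 1) scale, and libraries of different groups at 0.976 to 0.982. KRT8, KRT18, EGFR, CD44 and AXL, which the line is known to express, summed to 1219.72 to 1305.26 TPM in the 6 libraries, PGR was listed at 0 and ESR1 reached at most 0.39 TPM. ERBB2, which the line is known to hold at a low level, lay between 20.94 and 27.94 TPM. GATA3, FOXA1 and CD24, read as genes the line lacks or holds low, were detected in every library. They lay at 3.70 to 4.96, 2.97 to 3.73 and 1.89 to 4.67 TPM. None of them was called, though CD24 was higher in every irradiated library than in any control (adjusted p = 0.0910, limma). Because the followed genes are also fibroblast genes, 9 fibroblast markers were read: 6 of them stayed under 1 TPM in every library, COL1A2 at or below 0.06, and the list summed to 10.17 to 14.01 TPM in the controls and 15.09 to 19.32 in the irradiated cells, most of it COL1A1. Of the fibroblast markers, 3 were tested and none was called. LUM (log2 change 0.61, adjusted p = 0.0646, limma) and PDGFRB (0.48, adjusted p = 0.0824) were higher in every irradiated library than in any control. COL1A1 overlapped between groups (0.36, adjusted p = 0.239). Among leukocyte markers, CD3E reached at most 0.05 TPM. CD68, a lysosomal protein gene that is also a macrophage marker, rose from 63.2 ± 4.02 to 94.7 ± 2.62 TPM (limma, adjusted p = 0.00391), and PTPRC was at 40.36 TPM in irradiated replicate 1 and at most 0.45 in the other 5 libraries. Of 5 endothelial markers, 4 stayed under 1 TPM everywhere. The part of these markers in the results below was not tested.

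VIM, the vimentin transcript, was the only member called, and it fell. Of the 9 genes, 6 reached 1 TPM in at least 3 libraries and could be tested, and 3 (CDH2, TWIST1 and TWIST2) could not. Of the 6, 1 fell and none rose in limma at an adjusted p under 0.05, adjusted by Benjamini-Hochberg over the 14621 genes tested on log2(TPM + 1), where 10.6% of all tested genes were called, 4.07% lower and 6.53% higher. VIM was also the only one of the 6 with an unadjusted p under 0.05. The irradiated and control values did not overlap for VIM, lower, and SNAI2, higher, 2 of 6, against 34.9% of all tested genes, 14.5% lower and 20.4% higher. An exact two-sided permutation test on TPM cannot go below 0.10 with 3 against 3, and VIM and SNAI2 both stood at 0.10. Over all genes, calls split into 955 higher and 595 lower as deposited, 778 and 852 after median-ratio scaling and 844 and 1477 after correction for GC content and transcript length; VIM was called lower in each.

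**Figure D1:**
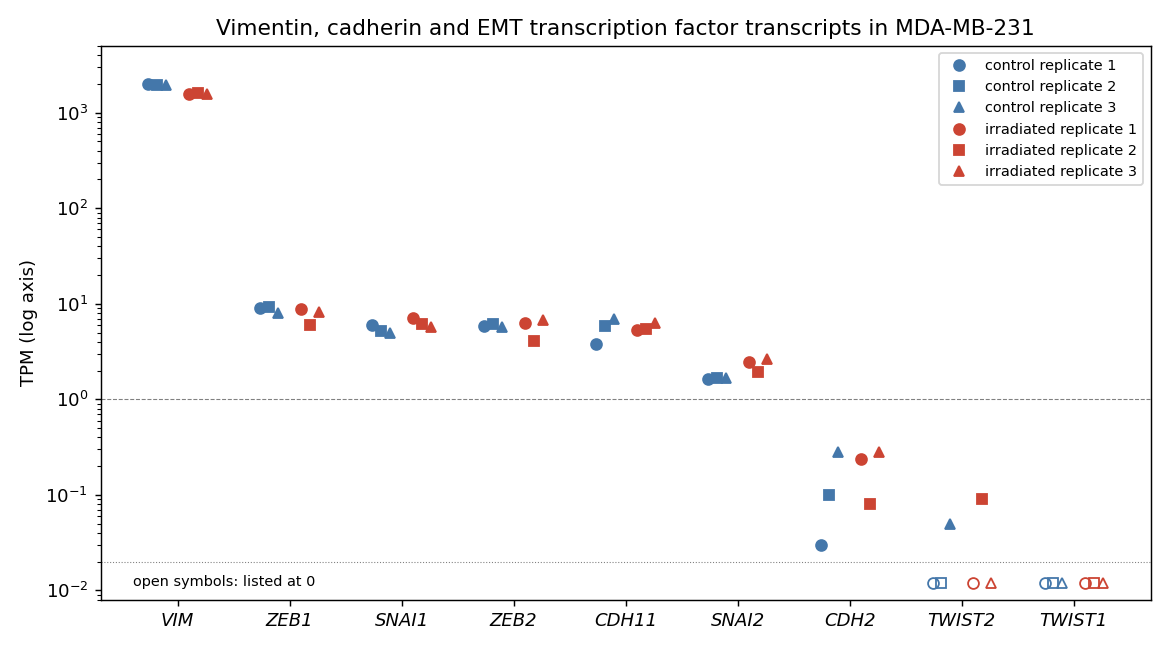
TPM of the 9 genes on a log axis, in order of their mean, with 1 symbol per library (blue controls, red irradiated) and open symbols for values listed at 0. VIM lies between 1582.92 and 2011.25 TPM, 5 genes lie between 1.65 and 9.16, and CDH2, TWIST2 and TWIST1 stay at or below 0.28 (the dashed line marks 1 TPM).

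VIM encodes vimentin, the type III intermediate filament protein of mesenchymal cells (ENSG00000026025; chromosome 10, 17228259 to 17237593, hg38, plus strand). The 3 control libraries held 2011.25, 1935.57 and 1955.29 TPM. The irradiated libraries held 1585.65, 1598.63 and 1582.92 TPM. The groups lay far apart against their own spread, with means of 1967 ± 39.3 and 1589 ± 8.39 TPM (SD, n = 3 each). The log2 change was -0.31 ± 0.03 SE (95% interval -0.38 to -0.23, adjusted p = 0.00479, limma), a ratio of 0.808. It was lower in 3 of 3 irradiated libraries and kept its call in all 15 alternative settings, with log2 changes of -0.34 to -0.29 and adjusted p up to 0.0381. In rank VIM went from 80, 83 and 88 among all rows in the controls to 103, 105 and 104. Its share of all transcripts went from 0.194% to 0.201% in the controls to 0.158% to 0.160% in the irradiated cells. Among the 245 tested genes with a mean of at least 500 TPM, 38 were called lower (15.5%, against 4.07% of all tested genes) and 15 higher. Of these abundant genes, 12 fell by at least as much as VIM did, VIM included. Over all tested genes, 923 did so, and 329 of them were called lower. The median size of change among all genes called lower was 0.33 on the log2 scale.

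Ratios within a library do not depend on a factor that scales the whole library, but a bias by GC content or transcript length stays in them. The ratio of VIM to KRT18, a keratin of simple epithelia, was 5.53, 5.49 and 5.21 in the controls and 4.66, 4.31 and 4.57 in the irradiated libraries. That of VIM to KRT8, its partner keratin, was 4.63, 4.68 and 4.50 against 3.63, 3.33 and 3.42. Neither pair of groups overlapped, and both gave an exact permutation p of 0.10, the smallest that 3 against 3 allows. A ratio of this kind shows unequal change and not which transcript moved. KRT8 itself went from 427 ± 12 to 460 ± 21.4 TPM and KRT18 from 364 ± 11.4 to 352 ± 16.1, neither of them called (adjusted p = 0.187 and 0.555, limma).

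Among 13 other filament genes, 9 were tested, 2 rose and 3 fell, or 55.6% called against 10.6% of all tested genes. Their median log2 change was 0.03 against 0.03 over all tested genes. The falls were the 3 lamin genes, which encode the filaments of the nuclear envelope. LMNB1 was at 99.21, 97.49 and 96.10 TPM in the controls and 73.83, 62.99 and 71.73 after irradiation (log2 change -0.49 ± 0.07 SE, adjusted p = 0.00858, limma). LMNB2 fell from 185 ± 8.51 to 140 ± 4.17 TPM (log2 change -0.40 ± 0.05, adjusted p = 0.00640). LMNA, named after its value was seen, fell from 256 ± 6.41 to 224 ± 3.88 TPM (log2 change -0.19 ± 0.04, adjusted p = 0.0237), and its log2 change was -0.31 after GC and length correction. The ratio of VIM to LMNA was 7.79, 7.76 and 7.47 in the controls and 7.15, 7.21 and 6.93 in the irradiated libraries. The groups did not overlap (exact permutation p = 0.10, the smallest possible). After GC and length correction the log2 changes of VIM and LMNA were closer, at -0.34 and -0.31, and the ratio was not computed there. The rises were in PRPH, the neuronal type III filament peripherin, from 1.51 ± 0.278 to 3.43 ± 0.438 TPM (log2 change 0.82 ± 0.15, adjusted p = 0.0188), and in NES, the progenitor cell filament nestin, from 12.8 ± 0.901 to 16.3 ± 0.445 TPM (log2 change 0.32 ± 0.08, adjusted p = 0.0439). Of the 24 genes called over the 10 lists of related genes, CDH24, LMNB1, LMNB2, TGFB1 and AXL kept their calls in all 15 alternatives. All others lost theirs with the replicate number as a block, and all of those but MMP14 with no filter. Of those others, only FOXQ1, ID2, ST14, CDH4, PRPH and MMP14 kept theirs when limma was run without its mean-variance trend. These losses are not repeated gene by gene, and the upper adjusted p given with a lost call is the highest over the 15. LMNA and NES lost their calls with any 1 control or with irradiated replicate 1 or 3 left out (adjusted p up to 0.0957 and 0.122), NES also after GC and length correction (0.0557), and PRPH with control replicate 1 or 2 left out or with irradiated replicate 1 or 3 left out (up to 0.0770).

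**Figure D2:**
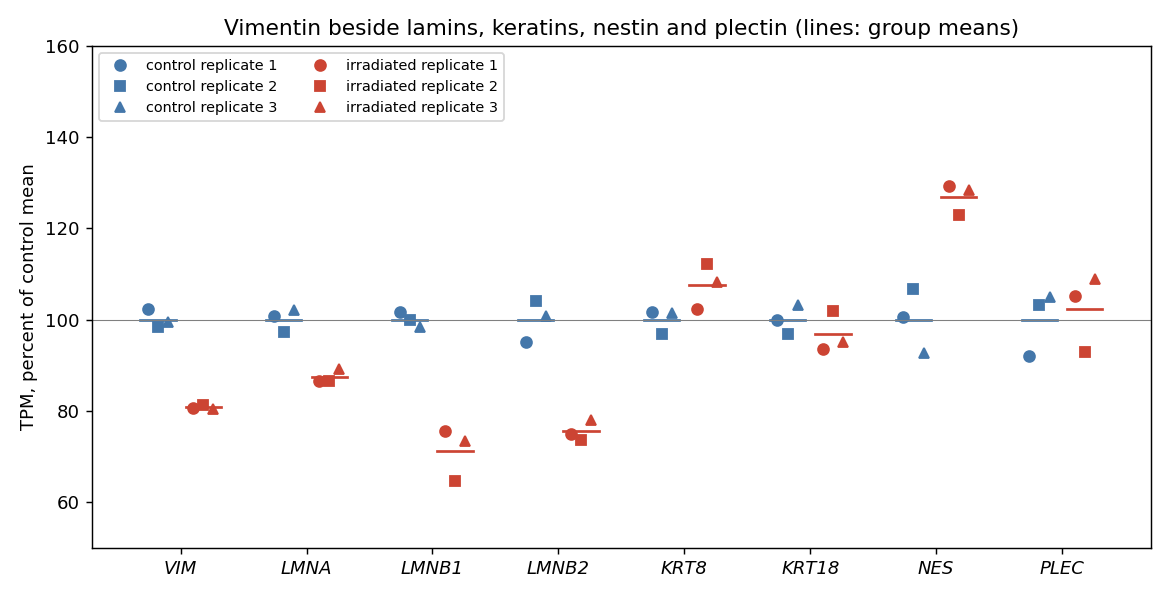
TPM as a percentage of the gene's control mean for VIM and 7 other filament or linker genes (LMNA, LMNB1, LMNB2, KRT8, KRT18, NES, PLEC), with 1 symbol per library and lines at the group means; VIM and the 3 lamins sit below their controls in every irradiated library, NES and KRT8 above, and KRT18 and PLEC overlap.

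Both cadherin members were at low levels, and neither was called. CDH11 encodes cadherin-11, an adhesion receptor of mesenchymal cells and osteoblasts (ENSG00000140937; chromosome 16, 64943753 to 65126112, minus strand). It was at 3.79, 5.90 and 6.97 TPM in the controls and at 5.35, 5.40 and 6.31 TPM after irradiation. The irradiated values lay inside the range of the controls, which were the more scattered group. The log2 change was 0.06 ± 0.19 SE (95% interval -0.39 to 0.51, adjusted p = 0.874, limma), and its sign turned without control replicate 1 (-0.15), without irradiated replicate 3 (-0.01) and after quantile normalization (-0.01). CDH2, the gene of N-cadherin, whose gain at the cost of E-cadherin is a hallmark of EMT, stayed at or below 0.28 TPM in this line (ENSG00000170558; chromosome 18, 27950966 to 28177446, minus strand). Its values were 0.03, 0.10 and 0.28 TPM in the controls and 0.24, 0.08 and 0.28 in the irradiated cells. These overlap throughout, and they are too low to test.

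Of the 18 other cadherin genes read beside them, 13 stayed under the filter. Of the 5 tested, 1 rose and 1 fell (40% called, against 10.6% of all tested genes). CDH24, a type II cadherin, was at 12.79, 13.77 and 13.80 TPM in the controls and 23.71, 22.25 and 22.47 after irradiation (log2 change 0.72 ± 0.07 SE, adjusted p = 0.00358, limma). CDH4, the gene of R-cadherin, a close relative of N-cadherin, was at 25.12, 25.99 and 25.91 TPM and then 19.42, 17.79 and 21.07 (log2 change -0.39 ± 0.08 SE, adjusted p = 0.0242). Its call was lost with any 1 control or with irradiated replicate 1 left out (adjusted p up to 0.0947). Both were more abundant than CDH11 in every library, with CDH4 at 3.29 to 6.63 times the level of CDH11. CDH1, the gene of E-cadherin, stayed at or below 0.40 TPM and was listed at 0 in 1 library of each group. Catenins, which tie cadherins to actin, and the cadherin-cleaving proteases gave no call among 9 tested genes. CTNNB1, the gene of beta-catenin, was at 338 ± 8.66 and 361 ± 29.6 TPM (adjusted p = 0.396), and CTNNA1, the gene of alpha-catenin, at 270 ± 4.70 and 260.0 ± 13.7 TPM (adjusted p = 0.504).

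ZEB1 was the most abundant of the transcription factors. It encodes a zinc finger and homeodomain repressor (ENSG00000148516; chromosome 10, 31318495 to 31529814, plus strand) and was at 9.08, 9.16 and 7.92 TPM in the controls. In the irradiated libraries it was at 8.82, 6.0 and 8.14 TPM. Replicate 2 was the low one, and the other 2 irradiated values lay within the control range. The log2 change was -0.18 ± 0.14 SE (95% interval -0.52 to 0.16, adjusted p = 0.455, limma) and -0.03 without irradiated replicate 2. ZEB2, its paralog (ENSG00000169554; chromosome 2, 144364364 to 144524583, minus strand), showed the same shape at a lower level, with 5.80, 6.20 and 5.71 TPM in the controls and 6.23, 4.03 and 6.82 in the irradiated libraries. Here replicate 2 lay below every control and the other 2 above every control. The log2 change was -0.07 ± 0.17 SE (95% interval -0.47 to 0.33, adjusted p = 0.830), and it turned to 0.12 without irradiated replicate 2. Both ZEB intervals include the log2 change of VIM, -0.31, as well as 0, so neither a change of that size nor its absence can be read from them.

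The ratio of ZEB1 to ZEB2 overlapped between groups, at 1.57, 1.48 and 1.39 in the controls and 1.42, 1.49 and 1.19 after irradiation (exact permutation p = 0.50, two-sided). The low ZEB values of irradiated replicate 2 came with a shift in long transcripts generally. In that library the 2420 tested genes with a longest transcript over 6000 bases lay at a median of -0.27 on the log2 scale against the other 2 irradiated libraries, and the 3182 genes of 4000 to 6000 bases at -0.15, while the 1344 genes under 1000 bases lay at 0.04. The controls differed by at most 0.04 in the class over 6000 bases. ZEB1 (longest transcript 6267 bases) lay at -0.44 in that library, ZEB2 (9583 bases) at -0.58 and SNAI2 (2828 bases) at -0.28, whereas VIM (2666 bases) lay at 0.01 and CDH11 (6874 bases) at -0.09. The part of this shift in the ZEB values was not tested.

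**Figure D3:**
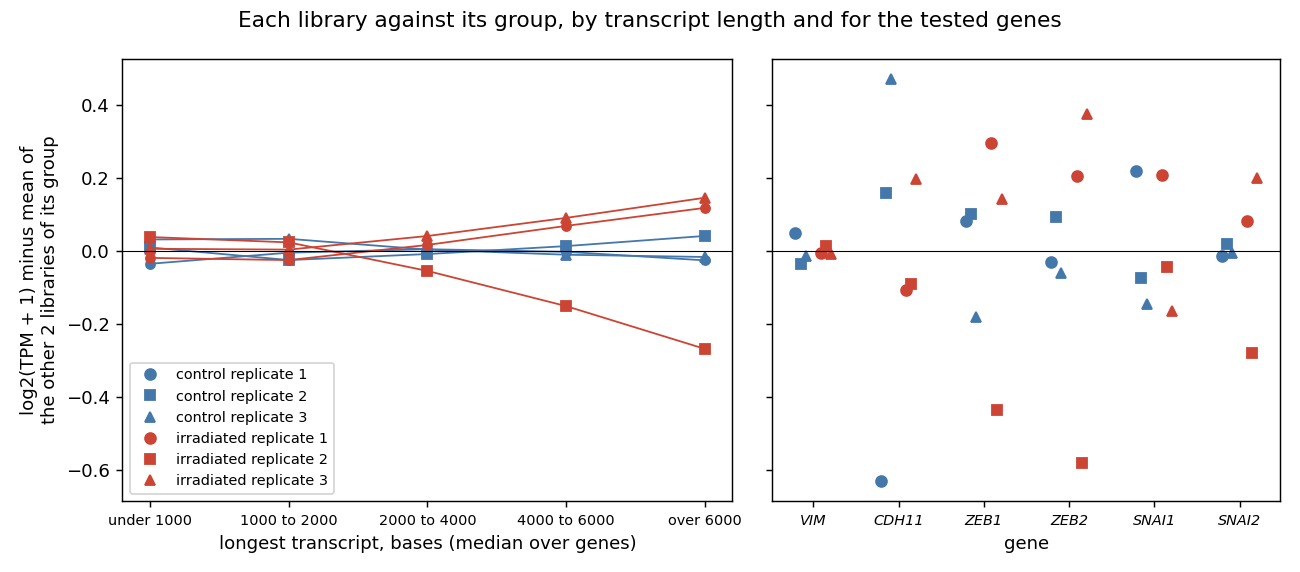
Difference of each library from the mean of the other 2 of its group in log2(TPM + 1), as medians over tested genes by length of the longest transcript (left) and for the 6 tested members (right). Irradiated replicate 2 falls to -0.27 for transcripts over 6000 bases and to -0.58 for ZEB2, and VIM stays near 0 in all libraries.

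The SNAI genes had higher means after irradiation, without a call. SNAI1 encodes Snail, a repressor of short half-life that acts early in EMT (ENSG00000124216; chromosome 20, 49982999 to 49988886, plus strand). It was at 6.02, 5.13 and 4.93 TPM in the controls and 7.04, 6.16 and 5.77 TPM after irradiation. The groups overlapped by 1 library, control replicate 1. The log2 change was 0.20 ± 0.12 SE (95% interval -0.07 to 0.48, adjusted p = 0.309, limma), between 0.07 and 0.28 over the alternatives. SNAI2 encodes Slug (ENSG00000019549; chromosome 8, 48917604 to 48921740, minus strand) and was at 1.65, 1.69 and 1.66 TPM in the controls. In the irradiated libraries it was at 2.44, 1.91 and 2.63 TPM, all above the controls. The controls were within 0.04 TPM of each other and the irradiated libraries spread over 0.72 TPM. The log2 change was 0.31 ± 0.14 SE (95% interval -0.01 to 0.63, adjusted p = 0.188), between 0.17 and 0.45 over the 14 alternatives that tested it, with adjusted p of 0.0912 to 0.424. At under 3 TPM, this scale understates a change. The ratio of SNAI1 to SNAI2 was 3.65, 3.04 and 2.97 in the controls and 2.89, 3.23 and 2.19 after irradiation (exact permutation p = 0.40, two-sided).

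The TWIST genes were near or at the floor of the table. TWIST1 (ENSG00000122691; chromosome 7, 19020991 to 19117672, minus strand) was listed at 0 in all 6 libraries. TWIST2 (ENSG00000233608; chromosome 2, 238848032 to 238910543, plus strand) was listed at 0.05 TPM in control replicate 3, at 0.09 in irradiated replicate 2 and at 0 in the other 4. Without read counts, a value of 0 may be a failed estimate. Every row that averaged more than 50 TPM had a value above 0 in all 6 libraries. A row at or near 0 in all 6 cannot enter that check, so it does not bear on the TWIST values. The 6 transcription factors together summed to 22.55, 22.18 and 20.27 TPM in the controls and 24.53, 18.19 and 23.36 in the irradiated libraries, with overlapping groups (exact permutation p = 0.90).

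**Figure D4:**
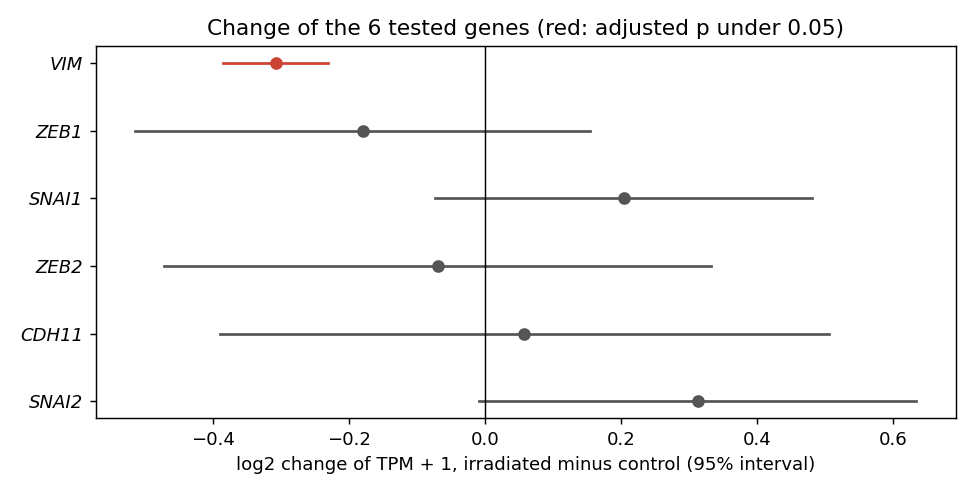
Log2 change of TPM + 1, irradiated minus control, for the 6 tested genes, with the 95% interval from limma. VIM (red) lies at -0.31 with an interval that excludes 0, and the intervals of ZEB1, SNAI1, ZEB2, CDH11 and SNAI2 all include 0.

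In order of level, VIM stood above the rest in every library. ZEB1 came next and was above SNAI1 in 5 of 6 libraries. SNAI1, ZEB2 and CDH11 could not be ordered: SNAI1 was above ZEB2 in 3 of 6 libraries and ZEB2 above CDH11 in 4 of 6. SNAI2 lay below CDH11 and above CDH2 in all 6, and CDH2 lay above TWIST2 in 5 of 6. Likeness to other genes was read as Pearson's r of log2(TPM + 1) over the 6 libraries, among named genes with a mean of at least 5 TPM, as a description with no test. The pattern of VIM was closest to those of ASNS, the asparagine synthetase gene (r = 0.999), and DAP (r = 0.999). ASNS held 89.12, 83.4 and 85.44 TPM in the controls and 44.01, 45.62 and 44.36 after irradiation (log2 change -0.93). DAP held 166.18, 159.14 and 163.37 TPM in the controls and 131.96, 133.67 and 131.38 after irradiation (log2 change -0.30). ZEB1 was closest to TPR, a nuclear pore protein gene (r = 0.999), and NSD3, a histone methyltransferase gene (r = 0.997), and ZEB2 to SLC7A11, the cystine transporter gene (r = 0.995), and PIKFYVE, a lipid kinase gene (r = 0.995). The lowest value of all 4 was in irradiated replicate 2, at 17.84, 11.22, 15.56 and 4.75 TPM. SNAI1 was closest to IFT88 (r = 0.985) and LACTB2 (r = 0.978), SNAI2 to RFC3 (r = 0.998) and S1PR3 (r = 0.996), and CDH11 to EXOSC7 (r = 0.987) and TMED3 (r = 0.985). These genes were the top of a search over all eligible genes, which by itself yields high values with 6 libraries.

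Around these members, signals known to raise EMT factors gave 3 calls among 16 tested genes (18.8%, against 10.6% of all tested genes). TGFB1, the gene of the growth factor TGF-beta 1, rose from 35.53, 33.61 and 32.91 TPM to 45.84, 46.00 and 45.69 TPM (log2 change 0.42 ± 0.05 SE, adjusted p = 0.00705, limma). YBX1, a translation regulator linked to SNAI1, fell from 934 ± 41.3 to 808 ± 29.4 TPM (adjusted p = 0.0340), and RELA, an NF-kappaB subunit gene, fell from 75.0 ± 8.07 to 59.5 ± 2.23 TPM (adjusted p = 0.0474). YBX1 lost its call with control replicate 1 or 2 left out or with irradiated replicate 1 or 3 left out and after median-ratio scaling or quantile normalization (adjusted p up to 0.123), and its log2 change of -0.21 became -0.32 after GC and length correction. RELA lost it with control replicate 1 or 2 or any 1 irradiated library left out and with a pseudocount of 0.1 or quantile normalization (up to 0.144). The list's median log2 change was -0.20. Its calls numbered 1 higher and 5 lower after median-ratio scaling and 1 higher and 6 lower after GC and length correction. The additions under both, named after their values were seen, were TGFBR2, a TGF-beta receptor gene, SMAD2 and SMAD4, which carry its signal, and HIF1A, the hypoxia factor gene, at log2 changes of -0.52 to -0.22 and -0.44 to -0.20. Of 13 other EMT transcription factor genes, 8 were tested and 1 was called (12.5%, against 10.6% of all tested genes). This was FOXQ1, a forkhead factor, at 2.02, 2.64 and 2.44 TPM in the controls and 0.81, 0.59 and 0.73 after irradiation (log2 change -0.98 ± 0.14 SE, adjusted p = 0.0112). Its call was lost without control replicate 2 (adjusted p up to 0.0555). With a pseudocount of 0.1 the log2 change was -1.61. GSC was listed at 0 throughout, and SNAI3, the remaining family member of Snail and Slug, stayed at or below 1.08 TPM. PRRX1, also untested, was at 0.10, 0.48 and 0.10 TPM in the controls. After irradiation it was at 0.87, 0.66 and 1.56 TPM, higher in every library but near the floor. The untested FOXC2 and KLF8 overlapped between groups, as SNAI3 did.

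Genes of co-repressors and partners of ZEB, SNAI and TWIST factors, with inhibitors of the ID family among them, all passed the filter by transcript level. All 22 were tested, with 2 higher and 2 lower (18.2% called, against 10.6% of all tested genes, median log2 change -0.14). The split moved to 1 higher and 4 lower after median-ratio scaling and to 1 higher and 6 lower after GC and length correction, where AJUBA, CTBP1, EZH2, SMARCA4 and SUZ12 were added at log2 changes of -0.33 to -0.21. ID1 and ID2 encode inhibitors that capture the E-proteins with which TWIST proteins pair. Their relatives ID3 and ID4 were not called in the main fit. ID3 was higher in every irradiated library (log2 change 0.17, adjusted p = 0.0554, limma) and ID4 lower in every one (-0.27, adjusted p = 0.204). The E-protein genes TCF3, TCF4 and TCF12 were not called either (adjusted p = 0.525, 0.449 and 0.118, limma). TCF12 was lower in every irradiated library (log2 change -0.55). It was at 28, 48.81 and 31.71 TPM in the controls and 23.22, 21.29 and 27.02 after irradiation. Control replicate 2 was the highest library for TCF12 and for TCF4, which was at 13.77 TPM there and at 2.12 to 3.86 elsewhere. ID2 was at 21.05, 23.09 and 21.85 TPM in the controls and 29.77, 28.08 and 33.26 after irradiation (log2 change 0.45 ± 0.08 SE, adjusted p = 0.0186, limma). ID1 rose from 227 ± 9.24 to 255 ± 3.44 TPM (log2 change 0.17 ± 0.04, adjusted p = 0.0470). KDM1A, the histone demethylase LSD1 that SNAI1 recruits, fell from 59.8 ± 3.14 to 49.8 ± 1.38 TPM (log2 change -0.26 ± 0.06, adjusted p = 0.0309), and HDAC2, a histone deacetylase, fell from 150.2 ± 5.39 to 128 ± 2.55 TPM (log2 change -0.23 ± 0.04, adjusted p = 0.0214). All 4 lost their calls in some fits: ID2 with any 1 control or with irradiated replicate 3 left out (adjusted p up to 0.0719), ID1 with control replicate 1 or 2 or any 1 irradiated library left out and after median-ratio scaling (up to 0.741, the value after GC and length correction, where its log2 change was 0.02), KDM1A with control replicate 1 or 2 or any 1 irradiated library left out (up to 0.107), and HDAC2 with control replicate 1 or 2 left out or with irradiated replicate 1 or 3 left out and after GC and length correction (up to 0.151). Of 15 genes that act on the stability of these factors, 14 were tested and 1 was called (7.14%, against 10.6% of all tested genes). USP7, a deubiquitinase gene, was called lower as well under median-ratio scaling, quantile normalization and the GC and length correction. FBXO45, a ubiquitin ligase subunit gene, fell from 12.2 ± 0.307 to 9.09 ± 1.03 TPM (log2 change -0.39 ± 0.10, adjusted p = 0.0469), a call lost without any 1 of the 6 libraries (adjusted p up to 0.148). GSK3B, the kinase that marks Snail for degradation, was named after its values were seen: irradiated replicate 1 held 131.24 TPM against 24.60 to 44.88 in the other 5 libraries.

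Epithelial genes that these factors repress were tested in 12 of 20 cases, and 7 of the 8 untested genes stayed under 1 TPM in every library. Of the 12, 3 rose and none fell (25% called, against 10.6% of all tested genes, 6.53% higher and 4.07% lower). Their median log2 change was 0.09, against 0.03 over all tested genes. After GC and length correction, however, 1 was called higher and 1 lower (median log2 change 0.03). ST14, the gene of the membrane protease matriptase, was at 1.35, 1.13 and 1.03 TPM in the controls and 2.85, 2.37 and 2.74 after irradiation (log2 change 0.75 ± 0.14 SE, adjusted p = 0.0189, limma). CLDN7, a tight junction claudin gene, rose from 13.8 ± 0.978 to 18.3 ± 1.83 TPM (log2 change 0.38 ± 0.09, adjusted p = 0.0460). PKP3, a desmosomal plakophilin gene, rose from 45.3 ± 2.88 to 55.6 ± 3.30 TPM (log2 change 0.29 ± 0.07, adjusted p = 0.0391). CLDN7 lost its call without any 1 of the 6 libraries and after median-ratio scaling, after quantile normalization and after GC and length correction, where its log2 change was 0.25 (adjusted p up to 0.143), ST14 with any 1 control or with irradiated replicate 1 or 3 left out (up to 0.0789), and PKP3 with control replicate 1 or 2 left out or with irradiated replicate 1 or 3 left out (up to 0.133) and after GC and length correction, where its log2 change was 0.17. EPCAM was at 11.27, 9.43 and 10.11 TPM and then 8.61, 8.43 and 8.32 TPM. It was not called (adjusted p = 0.130) and is the gene called lower after GC and length correction (log2 change -0.31, adjusted p = 0.0459).

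Of 14 mesenchymal effector genes, 13 were tested, with 2 higher and 3 lower. That was 38.5% called, against 10.6% of all tested genes (median log2 change 0.06, against 0.03). S100A4, a calcium-binding protein of motile cells, was at 12.02, 12.41 and 16.99 TPM in the controls and 7.18, 9.55 and 5.50 after irradiation (log2 change -0.83 ± 0.20 SE, adjusted p = 0.0422, limma). FN1, the fibronectin gene, fell from 38.0 ± 1.73 to 29.3 ± 2.39 TPM (log2 change -0.37 ± 0.08, adjusted p = 0.0269). AXL, a receptor kinase gene named after its value was seen, fell from 187 ± 1.79 to 146 ± 8.37 TPM (log2 change -0.36 ± 0.05, adjusted p = 0.00921). SPARC, a matrix glycoprotein gene, rose from 22.7 ± 1.42 to 30.1 ± 3.20 TPM (log2 change 0.39 ± 0.09, adjusted p = 0.0375), and MMP14, a membrane-bound matrix protease gene, rose from 67.4 ± 3.16 to 87.0 ± 3.25 TPM (log2 change 0.36 ± 0.05, adjusted p = 0.0111). S100A4, FN1 and SPARC lost theirs with any 1 control or with irradiated replicate 1 or 3 left out (adjusted p up to 0.131, 0.104 and 0.104), S100A4 also after quantile normalization and FN1 after GC and length correction, and MMP14 without control replicate 1 (up to 0.0533). The antisense RNAs that overlap member genes were not called. VIM-AS1, which overlaps the start of VIM, was at 3.73 ± 0.498 and 3.97 ± 0.430 TPM (adjusted p = 0.761), and ZEB1-AS1 at 2.76 ± 0.700 and 3.06 ± 0.621 TPM (adjusted p = 0.717). Where they overlap, reads of a gene and its antisense partner cannot be told apart, because the strand setting is not given in the sources used here.

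**Figure D5:**
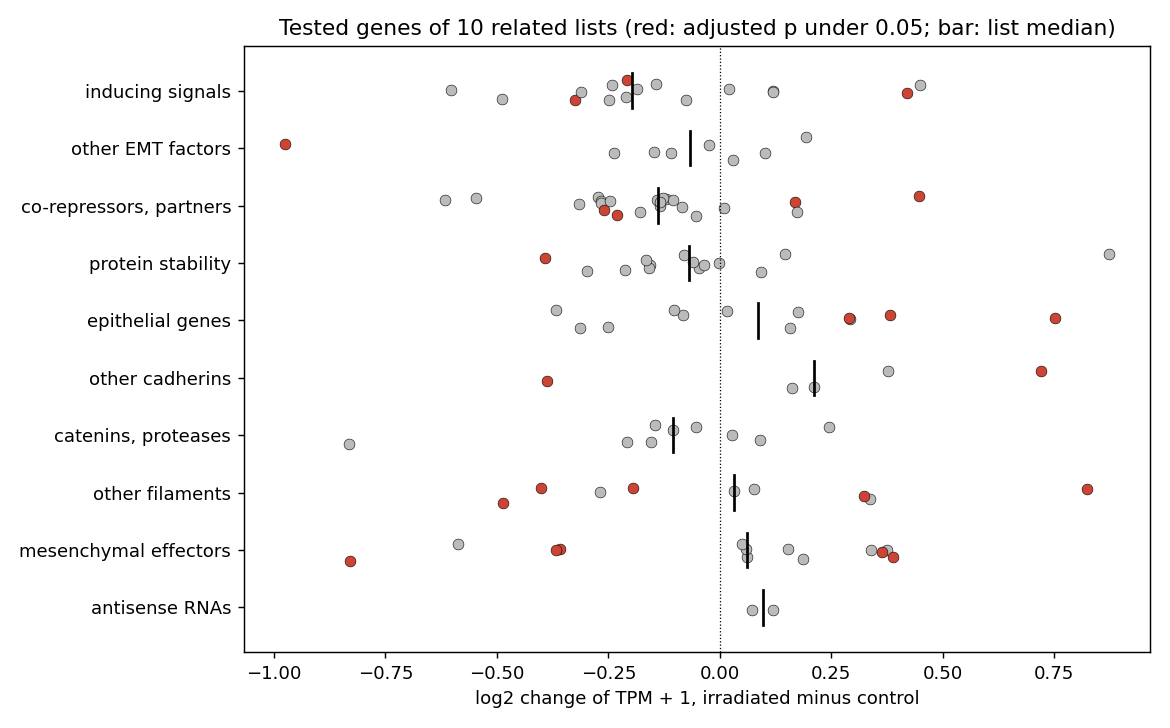
Log2 change of TPM + 1, irradiated minus control, for the tested genes of 10 related lists, with calls in red and black bars at list medians. Calls lie on both sides of 0 in 5 lists (inducing signals, co-repressors and partners, other cadherins, other filaments, mesenchymal effectors), and the 3 called epithelial genes lie above 0.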

How the data were processed

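RNA of 3 control and 3 irradiated MDA-MB-231 libraries was sequenced from TruSeq libraries, per the labels' protocols. The submitters' processing notes name HISAT2, StringTie, RSEM and hg38, with no version, role or order. All values come from a table of TPM that the authors deposited, whose columns each sum to between 999999 and 1000000. As a share of the library, TPM of every other gene goes down where abundant transcripts go up, and no scaling between samples is recorded. Depth cannot be recovered, and the number of libraries limits the precision.

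Groups came from the sample titles. At most 0.479% of tested rows had identical values in any 2 libraries of a group, and each library was counted as its own replicate. The 14621 genes that reached 1 TPM in 3 or more samples were tested on log2(TPM + 1) with limma 3.58.1 in R 4.3.3 (lmFit, eBayes with a mean-variance trend), two-sided, Benjamini-Hochberg over all of them, at a threshold of 0.05. The pipeline was tested on simulated tables, with noise drawn independently for each gene and library in the limma simulation. That simulation held no shift by transcript length, and its outcome is not given here. Members and lists were chosen with earlier results of these data known. Named genes were the 9 members, up to 4 called genes with the largest change in each list (or the 2 most abundant), and the 2 genes most correlated with each member; all other genes named were chosen once their values were known. Gene positions, transcript lengths and UTRs came from GENCODE 29 (GRCh38, the assembly of hg38), promoters and microRNAs from RefSeq. Deviations of same-numbered samples correlated at 0.03, -0.06 and -0.03, and replicate numbers were not taken to pair samples. The 15 alternatives comprised quantile normalization, median-ratio scaling, a GC and length correction (97.4% of tested genes covered), dropping the filter or raising it to 5 TPM, lowering the pseudocount to 0.1, eBayes without trend or robust, the replicate block, and each library left out.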

Additional observations from a re-analysis of the deposited data

How the results depend on the processing

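The number of members called was 1 in all 15 alternatives, VIM in each. CDH11 turned to -0.0142 after quantile normalization and ranged from -0.15 to 0.21 with 1 library left out. With 1 library left out, ZEB2 ranged from -0.19 to 0.12 and ZEB1-AS1 from -0.0381 to 0.23. VIM-AS1 turned to -0.0397 after quantile normalization. For these members and antisense RNAs, none called in any fit, the cause was not tested. Over all tested genes, calls numbered 1550 as reported, 497 with no filter, 993 without the eBayes trend, and 306 to 1390 with 1 library left out. Over the 10 related lists they numbered 24, 6 with no filter, 12 without the eBayes trend, and 6 to 19 with 1 library left out. Scaling moved their split from 11 higher and 13 lower to 9 and 19 (28 in all) by median ratio and to 7 and 23 (30 in all) by GC and length correction. With the replicate block, 362 of all tested genes and 5 list genes were called; VIM kept its call there. Leaving a library out or adding the block leaves fewer residual degrees of freedom, and no filter tests 32164 genes. The smallest exact permutation p of a member was 0.10 as deposited and after median-ratio scaling. With no read counts, depth sets no limit that can be stated, and values near 0 TPM are given as listed.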
